A study of Homo sapiens with 46 samples.

Results

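Transcripts of 3 DNA methyltransferases (DNMT3B, DNMT3A and DNMT1) and 2 TET enzymes (TET1 and TET2) were followed during neural conversion of H1 cells, a long-established line of human embryonic stem cells. They are 5 of the 63691 transcript rows in each deposited table and 5 of the 17680 transcript groups tested. A row was taken by its transcript identifier and kept when its deposited length lay within 1 of the length of the named protein in residues less 19. All 5 identifiers were present and met the length, so that uc002wyc.3 stands for DNMT3B, uc002rgc.4 for DNMT3A, uc002mng.3 for DNMT1, uc001jok.4 for TET1 and uc003hxk.3 for TET2. The tables hold no gene names, so these names rest on that match alone. The rule itself uses no measured value, but the enzymes were taken up with earlier results of these data known.

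Cells received a lentiviral short hairpin that was a control (shControl), or that targeted KBTBD8 (shKBTBD8), which brings substrates to the ubiquitin ligase CUL3, or TCOF1 (shTCOF1), which encodes a nucleolar protein. They were collected undifferentiated in mTESR1 without feeder cells (hES) or after 1, 3 or 6 days in NIM, the neural conversion medium (ND1, ND3 and ND6), and either mRNA or RNase I footprints of pelleted ribosomes were sequenced. A first set of 32 libraries held shControl and shKBTBD8 at 4 stages with 2 replicates for each assay. A second set of 14 libraries, told apart by how the titles are written, held 2 shControl replicates at hES, 1 library of each other hairpin at hES, and 1 of every hairpin at ND3, for each assay. The labels do not say whether replicates were separate cultures or infections, nor how many hairpin sequences were used, and p-values therefore measure the spread between libraries, which may be technical. The mRNA of the hairpins' targets and of stem cell or neural markers is not analysed here, because the identifiers carry no names.

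DNA methylation in mammals sits mostly on the cytosine of CG dinucleotides. DNMT3A and DNMT3B place new methyl groups, DNMT1 copies the pattern onto the daughter strand after replication, and TET enzymes oxidise the methyl group, the first step of its removal. Human pluripotent stem cells are known for abundant DNMT3B, and loss of DNMT3B is a common sign that they have left that state.

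The CG dinucleotide on which these enzymes act is shown in capitals in the promoter window of TET2, the member whose mRNA rose most. The window, chr4:105146626-105146925 on the plus strand of GRCh38.p14, runs from 250 bases before to 50 bases after a start listed by RefSeq, 5′ to 3′.
TET2: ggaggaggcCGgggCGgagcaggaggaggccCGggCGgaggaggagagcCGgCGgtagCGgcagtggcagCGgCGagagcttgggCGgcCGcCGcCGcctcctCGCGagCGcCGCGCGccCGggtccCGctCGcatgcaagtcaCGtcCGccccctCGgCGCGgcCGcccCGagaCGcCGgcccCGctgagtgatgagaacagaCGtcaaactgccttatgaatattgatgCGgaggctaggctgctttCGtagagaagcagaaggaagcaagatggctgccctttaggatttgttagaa
It holds 35 CG dinucleotides, and 85.9% of 35116 RefSeq promoter windows of the same length hold fewer. The second TET2 window in that table holds 13. Methylation itself was not measured in these samples.

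Depth, counted on 1 row per transcript group, ranged in the first set from 16.3 M to 27.1 M counts for mRNA libraries and from 1.03 M to 10.2 M for footprint libraries. In the second set it ranged from 11.3 M to 29.2 M and from 4.07 M to 7.93 M. Levels are given as CPM, counts per 1 M of that depth. Every member had at least 76 counts in every mRNA library. TET2 had only 0 to 65 footprint counts per library in the first set and 0 to 114 in the second, so its footprint values carry wide errors. The other 4 members had at least 81 footprint counts in every library. The share of transcript groups with no count ran from 1.56% to 21.8% over first-set footprint libraries. It ran from 2.44% to 16.4% over those of the second set.

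In undifferentiated control cells DNMT3B was by far the most abundant of the 5 mRNAs, and by ND6 it stood level with DNMT3A. Compared per 1000 units of deposited length, so that long and short transcripts can be set side by side, mean mRNA levels at hES were 1556 ± 257 CPM for DNMT3B, 144 ± 29.8 for DNMT3A, 140 ± 4.74 for DNMT1, 49.6 ± 13.7 for TET1 and 2.63 ± 0.481 for TET2 (SD, n = 2 each). Of the neighbours in that order, only DNMT3A and DNMT1 had overlapping ranges. At ND6 the order was DNMT3B at 128 ± 24.5, DNMT3A at 120 ± 3.39, DNMT1 at 83.5 ± 13.2, TET1 at 66.7 ± 5.93 and TET2 at 31.2 ± 3.08 (SD, n = 2 each). There DNMT3B and DNMT3A overlapped and the other neighbours did not. The lengths are those of the rows taken here, and shorter rows of DNMT3B and DNMT3A held most of the same counts. The DNMT3A row exceeds its shorter row by 21.2% of its length but by 1.83% of its counts over all libraries. The order of DNMT3B and DNMT3A at ND6 may therefore depend on the row chosen. So may the overlap of DNMT3A and DNMT1 at hES and the ratios of DNMT3B to DNMT3A given below. The 5 enzymes thus spanned a narrower range of mRNA levels at ND6 than at hES. On this per-length scale DNMT3B exceeded TET2 by 759 and 463 times in the 2 hES control libraries and by 3.3 and 4.99 times in the 2 at ND6. The ratio of DNMT3B to DNMT3A went from 10.5 and 11.2 to 0.935 and 1.18 in the same libraries.

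**Figure D1:**
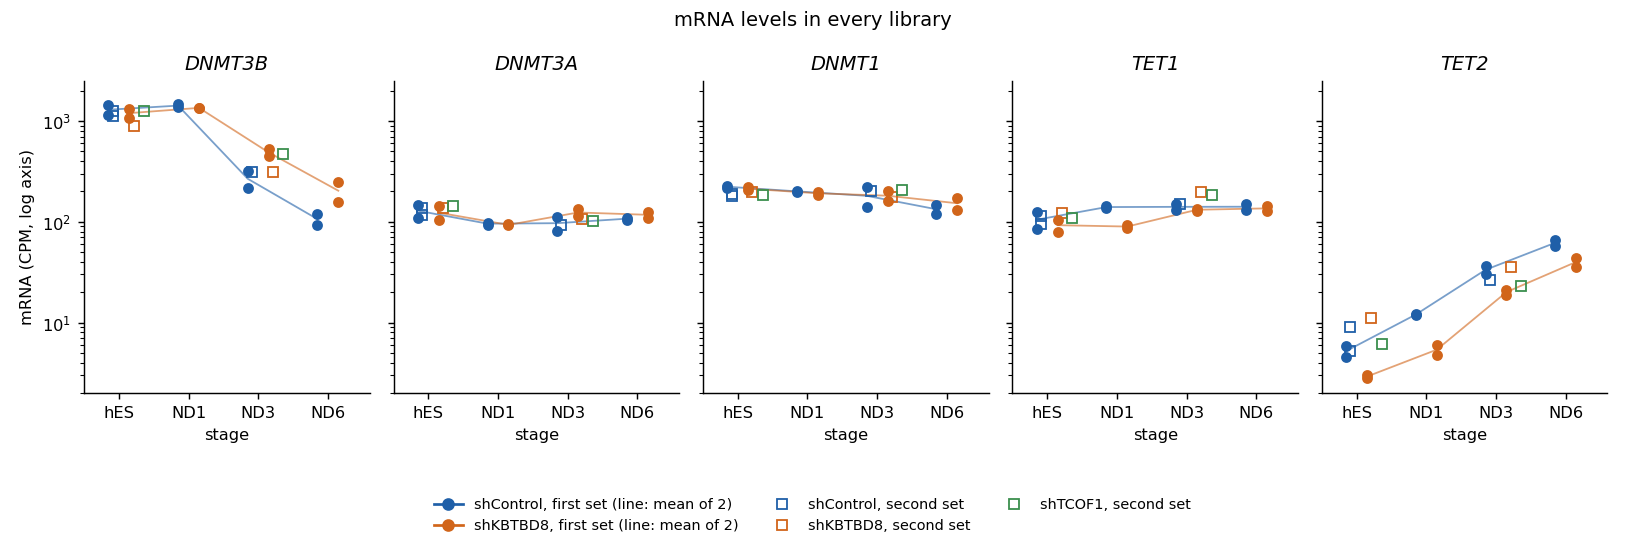
mRNA level in CPM (log axis) of each enzyme against stage, with 1 point per library, coloured by hairpin, filled for the first set and open for the second. Lines join the means of 2 replicates. DNMT3B stays near its hES level at ND1 and is lowest at ND6, TET2 climbs at every stage, and the shKBTBD8 points lie above the control for DNMT3B and below it for TET2 at ND3 and ND6 of the first set.

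Neural conversion of control cells was examined first, with ND1, ND3 and ND6 each compared with the same 2 hES libraries. DNMT3B mRNA measured 1448 and 1146 CPM at hES and 1483 and 1368 CPM at ND1. It then measured 218 and 316 CPM at ND3 and 91.9 and 121 CPM at ND6. Both libraries at ND3 and at ND6 lay far below every hES and ND1 library. The log2 change was 0.06 ± 0.22 (SE) at ND1 (edgeR quasi-likelihood test, adjusted p = 0.861), -2.26 ± 0.23 at ND3 (adjusted p = 2.2e-06) and -3.62 ± 0.24 at ND6 (adjusted p = 2.09e-08), a 12.3-fold lower level at ND6. In bulk RNA, fewer cells that express a gene and less of its RNA per cell cannot be told apart.

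DNMT3A, the other de novo enzyme, measured 148 and 110 CPM at hES, 93.8 and 97.9 at ND1, 81.9 and 112 at ND3, then 105 and 110 at ND6. The ranges at hES and ND3 overlapped. No stage passed the threshold, with log2 changes of -0.50 ± 0.19 (adjusted p = 0.0694), -0.40 ± 0.19 (adjusted p = 0.105) and -0.27 ± 0.19 (adjusted p = 0.243). Without hES shControl replicate 2, the lower of the hES libraries, the 3 changes were -0.74, -0.63 and -0.51. Without hES shControl replicate 1, the higher, they were -0.22, -0.12 and 0.00903, so their size depended on which hES library was kept.

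DNMT1, the maintenance enzyme, measured 228 and 218 CPM at hES and 199 and 202 CPM at ND1. It measured 142 and 221 CPM at ND3 and 118 and 148 CPM at ND6. The ND3 replicates differed widely, while both ND6 libraries lay below both hES libraries. DNMT1 mRNA fell by 0.75 ± 0.19 (log2, SE) at ND6 (adjusted p = 0.00352), and its changes of -0.22 ± 0.19 at ND1 (adjusted p = 0.418) and -0.28 ± 0.19 at ND3 (adjusted p = 0.235) did not pass. Without ND6 shControl replicate 1 the ND6 change was -0.60 and the call was lost. Without ND3 shControl replicate 2, the higher of the ND3 libraries, the ND3 change was -0.59, and without ND3 shControl replicate 1 it was -0.02.

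TET2 mRNA measured 4.54 and 5.89 CPM at hES, 12.0 and 12.1 at ND1, 36.6 and 30.1 at ND3, then 66.2 and 57.6 at ND6. Each stage lay wholly above the stage before it. TET2 rose by 1.14 ± 0.19 (log2, SE) at ND1 (adjusted p = 0.000438), by 2.71 ± 0.19 at ND3 (adjusted p = 3.91e-08) and by 3.57 ± 0.19 at ND6 (adjusted p = 1.89e-09), the last an 11.9-fold higher level. Among the 5 enzymes it was the one that passed at ND1.

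TET1, which is also known as a gene of pluripotent cells, measured 84.5 and 125 CPM at hES, 144 and 136 at ND1, 150 and 132 at ND3, then 150 and 132 at ND6. The hES libraries lay below all later ones, and the later stages overlapped one another. TET1 rose by 0.46 ± 0.16 at ND3 (adjusted p = 0.0325) and by 0.44 ± 0.16 at ND6 (adjusted p = 0.0332), and its change of 0.36 ± 0.16 at ND1 did not pass (adjusted p = 0.122). Without hES shControl replicate 1 the changes at ND3 and ND6 were 0.24 (adjusted p = 0.309) and 0.22 (adjusted p = 0.33). Leaving out replicate 1 of ND3 or of ND6 also ended the call at that stage (0.34 and 0.33). The ND1 change was 0.62 without hES shControl replicate 2 and 0.14 without hES shControl replicate 1. In a fit of only the groups compared neither call held (adjusted p = 0.114 and 0.069), and with every row as its own feature the ND6 call did not (adjusted p = 0.0642).

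Of the 5 enzymes, 1 passed at ND1, 3 at ND3 and 4 at ND6 in control mRNA. Conversion changed a large part of all transcripts, with 27.0%, 47.5% and 59.2% of the 17659 tested called at these stages, so the counts of enzymes called are not far from the background. Over the 5 the median log2 change was 0.06 at ND1, -0.28 at ND3 and -0.27 at ND6, beside medians of -0.03, 0.00 and 0.01 over all transcripts.

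Ribosome footprints of DNMT3B, the sign of its mRNA under translation, followed the same course in control cells. They measured 1371 and 1097 CPM at hES, 1567 and 1458 at ND1, 241 and 370 at ND3, then 110 and 118 at ND6. As with the mRNA, the ND3 and ND6 libraries lay below all earlier ones. The log2 change was -2.25 ± 0.27 (SE) at ND3 (edgeR, adjusted p = 5.22e-06) and -3.79 ± 0.29 at ND6 (adjusted p = 3.94e-09).

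DNMT1 footprints measured 212 and 202 CPM at hES, 163 and 163 at ND1, 103 and 172 at ND3, then 74.9 and 119 at ND6. Both libraries of each later stage lay below both hES libraries. The change of -1.44 ± 0.31 (log2, SE) at ND6 passed (adjusted p = 0.00196), while -0.50 ± 0.30 at ND1 (adjusted p = 0.743) and -0.82 ± 0.30 at ND3 (adjusted p = 0.11) did not. Without ND6 shControl replicate 1 the value at ND6 was -1.12 and the call was lost. With 1 library left out the value at ND3 ran from -1.26 to -0.48.

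TET2 footprints in control cells came to 10 and 8 counts at hES, 8 and 1 at ND1, 28 and 28 at ND3, then 65 and 37 at ND6, which is 0.979 and 2.02 CPM at hES and 24.3 and 15.2 CPM at ND6. The ND6 libraries stood clear of the others. The rise at ND6 was 3.42 ± 1.16 (log2, SE; adjusted p = 0.0487), and leaving out any of the 4 libraries compared ended the call (3.06 to 3.87, adjusted p = 0.0994 to 0.287), as did taking every row as its own feature (adjusted p = 0.0502). TET1 footprints measured 41.8 and 44.5 CPM at hES and 78.6 and 85.6 CPM at ND6, and DNMT3A footprints 140 and 108 CPM at hES and 127 and 116 CPM at ND6. TET1 libraries did not overlap between hES and ND6, but its change of 0.58 ± 0.31 did not pass (adjusted p = 0.238), nor did that of DNMT3A, -0.40 ± 0.33 (adjusted p = 0.496).

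In control footprints no enzyme passed at ND1 (1 at an unadjusted p under 0.05 in edgeR, 0 with DESeq2), 1 passed at ND3 and 3 at ND6. Over all 16740 transcripts tested, 1.59%, 7.04% and 15.1% were called at these stages.

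**Figure D2:**
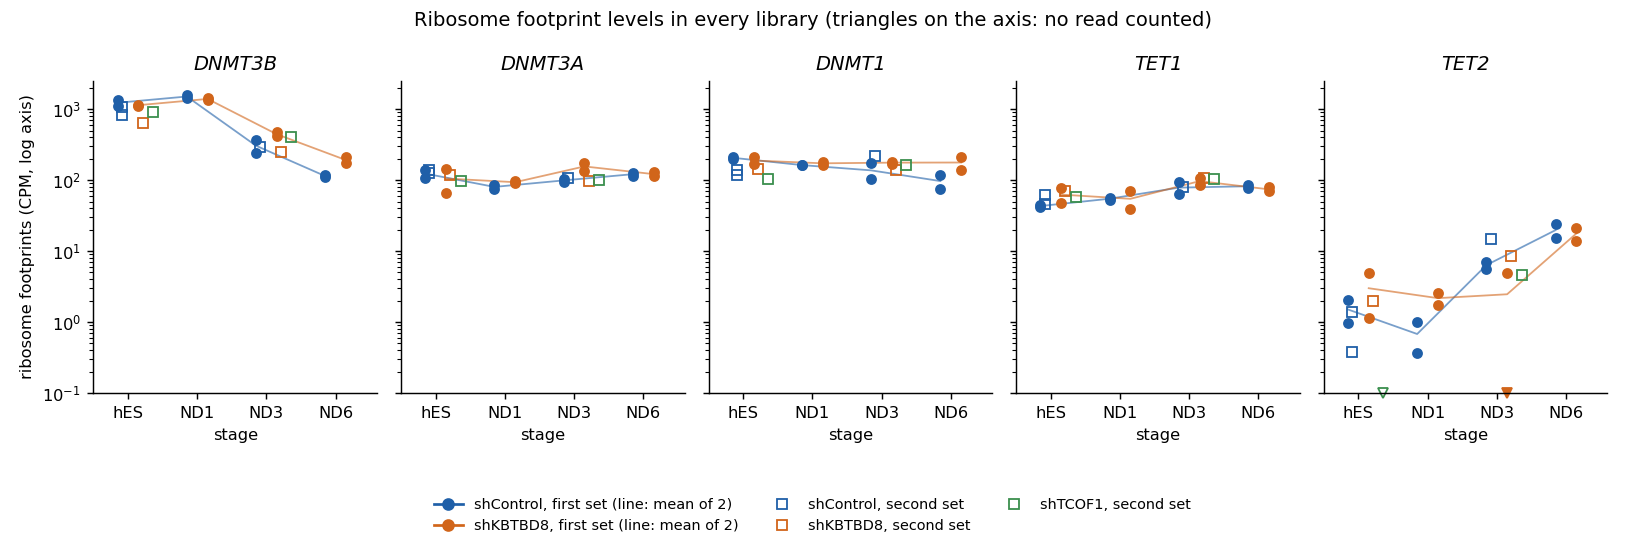
Ribosome footprint level in CPM (log axis) of each enzyme against stage, with 1 point per library, coloured by hairpin, filled for the first set and open for the second, and lines through the means of 2 replicates. DNMT3B falls from over 1000 CPM to 110 and 118 CPM in control cells, DNMT3A stays between 65.1 and 177 CPM and TET1 between 39.3 and 108 CPM, and TET2 rests on few counts, with none in the 2 libraries drawn as triangles.

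Translational efficiency, the footprint change relative to the mRNA change, was tested as an interaction in a model over both assays. For DNMT3B it was 0.04 ± 0.35 (log2, SE) at ND1, -0.03 ± 0.35 at ND3 and -0.26 ± 0.36 at ND6 (adjusted p = 1.0 at each), each smaller than its SE. DNMT1 at ND6 stood at -0.78 ± 0.36 (unadjusted p = 0.0402, adjusted p = 0.778). TET2 measured -2.06 ± 0.96 at ND1, on 8 and 1 footprint counts (adjusted p = 1.0). No enzyme passed at any stage with edgeR or DESeq2, and 1, 0 and 1 had an unadjusted p under 0.05 in edgeR at ND1, ND3 and ND6. Of all 17680 transcripts, 0.00566%, 0.0509% and 1.3% were called.

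The 2 TET mRNAs carried fewer footprints for their mRNA than the methyltransferases in most libraries. Footprint and mRNA libraries with the same set, stage, hairpin and replicate number were taken as pairs, which the labels do not tie to a shared culture. The log2 ratio of footprint to mRNA CPM had a median over 23 pairs of -0.06 for DNMT3B (range -0.51 to 0.27), -0.04 for DNMT3A (-0.67 to 0.41), -0.29 for DNMT1 (-0.83 to 0.30) and -0.89 for TET1 (-1.49 to -0.25). For TET2 it was -1.93 over the 21 pairs with a footprint count (-5.06 to 0.69). TET1 lay below DNMT1 in 23 of 23 pairs and below DNMT3B in 22 of 23, and TET2 lay below TET1 in 18 of 21. Within each pair the enzymes were ranked among all transcripts counted in both assays, and the median percentile was 48.2 for DNMT3B, 53.4 for DNMT3A, 42.1 for DNMT1, 23.7 for TET1 and 6.08 for TET2. These ranks describe the libraries and carry no test, and pairs of 1 set share their handling.

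**Figure D3:**
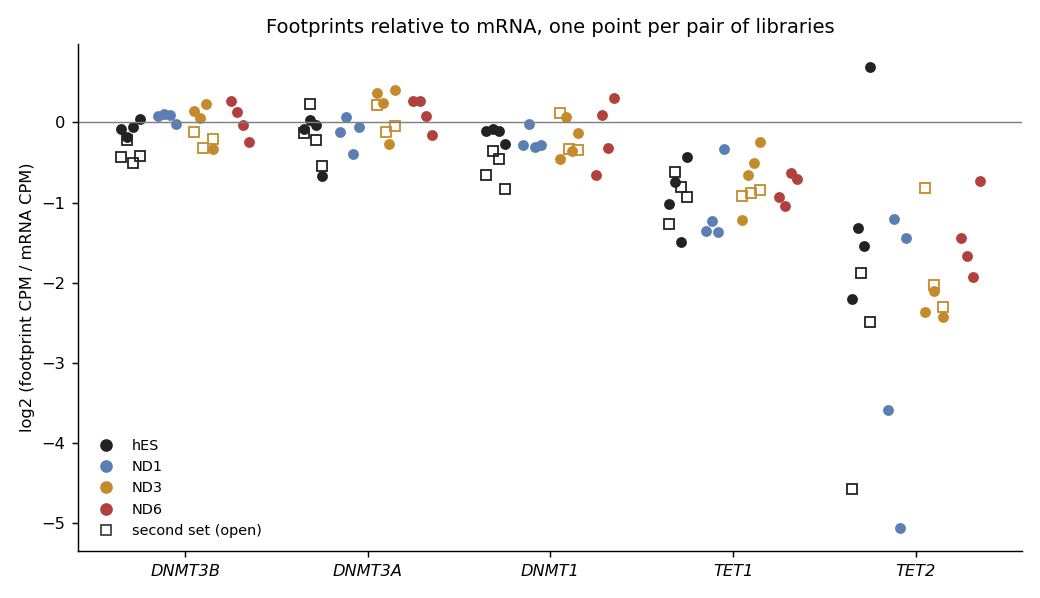
Log2 ratio of footprint to mRNA CPM for each enzyme, with 1 point per pair of libraries, coloured by stage and open for the second set. The methyltransferases lie between -0.83 and 0.41 at every stage, TET1 between -1.49 and -0.25, and TET2, on few footprint counts, between -5.06 and 0.69.

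Conversion was then examined in shKBTBD8 cells, against their own hES libraries. DNMT3B mRNA measured 1315 and 1084 CPM at hES, 1347 and 1360 at ND1, 453 and 524 at ND3, then 159 and 248 at ND6. The ND3 and ND6 libraries again lay below all earlier ones. The log2 change of DNMT3B was -1.27 ± 0.22 (SE) at ND3 (edgeR, adjusted p = 0.000314) and -2.52 ± 0.23 at ND6 (adjusted p = 4.81e-07), and 0.14 ± 0.22 at ND1 (adjusted p = 0.68).

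TET2 mRNA in the same cells measured 2.81 and 3.01 CPM at hES, 6.03 and 4.72 at ND1, 21.2 and 18.9 at ND3, then 44.2 and 35.7 at ND6. Every stage lay above the one before. TET2 rose by 0.84 ± 0.20 at ND1 (adjusted p = 0.00698), 2.82 ± 0.19 at ND3 (adjusted p = 4.74e-08) and 3.83 ± 0.20 at ND6 (adjusted p = 1.67e-09). The ND1 value without ND1 shKBTBD8 replicate 1 was 0.66 (adjusted p = 0.0712).

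TET1 mRNA measured 80.0 and 105 CPM at hES, 91.9 and 87.5 at ND1, 136 and 128 at ND3, then 143 and 129 at ND6 in shKBTBD8 cells. It rose by 0.55 ± 0.16 at ND3 (adjusted p = 0.0132) and 0.61 ± 0.17 at ND6 (adjusted p = 0.00541), and stood at -0.07 ± 0.16 at ND1 (adjusted p = 0.784). Neither rise passed without hES replicate 1 (0.39, adjusted p = 0.134, and 0.45, adjusted p = 0.0711), and the ND3 rise did not pass without ND3 replicate 1 (0.50, adjusted p = 0.076). DNMT1 mRNA measured 221.5 and 205 CPM at hES and 131 and 174 at ND6. The change of -0.44 ± 0.19 missed the threshold in edgeR (adjusted p = 0.06) and passed with DESeq2 (adjusted p = 0.0458). With 1 library left out the DNMT1 change ran from -0.65, without ND6 shKBTBD8 replicate 2, to -0.25. DNMT3A mRNA stayed between 92.3 and 143 CPM over the 8 shKBTBD8 libraries, with changes of -0.44 ± 0.19, 0.03 ± 0.19 and -0.03 ± 0.19 at ND1, ND3 and ND6 (adjusted p = 0.107, 0.9 and 0.914). With 1 library left out the ND1 change of DNMT3A ran from -0.68, without hES shKBTBD8 replicate 2, to -0.15.

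In shKBTBD8 mRNA, 1 enzyme passed at ND1 and 3 at each of ND3 and ND6, beside 27.2%, 49.4% and 59.4% of all transcripts. In footprints DNMT3B alone passed, with -1.61 ± 0.26 at ND3 (adjusted p = 0.000265) and -2.88 ± 0.28 at ND6 (adjusted p = 1.69e-07), beside 1.45%, 7.63% and 13.5% of all transcripts at ND1, ND3 and ND6. At ND1 no enzyme passed in footprints, at an adjusted or an unadjusted p, with edgeR, or with DESeq2. TET2 footprints came to 10 and 23 counts at hES, 17 and 6 at ND1, 20 and 0 at ND3, then 53 and 22 at ND6. The count of 0 in ND3 replicate 2 allows a level of up to 1.26 CPM by counting error alone. In that library, at 2.38 M counts, 21.8% of transcript groups had no count. In ND6 shControl replicate 2, at 2.44 M, 9.73% had none, so the level in that ND3 library may lie above this limit.

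Cells with shKBTBD8 were then compared directly with shControl cells at each stage of the first set. Since the mRNA of KBTBD8 was not read here, this compares hairpins and does not show depletion. The shKBTBD8 cells had more DNMT3B mRNA than control cells at ND3 and ND6, and less TET2 mRNA at ND1 and ND3. DNMT3B stood at 453 and 524 CPM in shKBTBD8 cells against 218 and 316 in control cells at ND3, and at 159 and 248 against 91.9 and 121 at ND6. The groups did not overlap at either stage. The difference was 0.88 ± 0.22 (log2, SE) at ND3 (edgeR, adjusted p = 0.0218), or 1.84-fold, and 0.98 ± 0.22 at ND6 (adjusted p = 0.0218), or 1.97-fold. At hES and ND1 it was -0.12 ± 0.22 and -0.04 ± 0.22 (adjusted p = 1.0 and 0.967).

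Both DNMT3B calls were lost when some single libraries were left out, although a group then held only 1 library. With 1 library left out the difference ran from 0.66 to 1.12 at ND3 and from 0.63 to 1.26 at ND6. Without ND3 shControl replicate 1 the ND3 difference was 0.66 (adjusted p = 0.249), and without shKBTBD8 replicate 1 or 2 of ND3 it was 0.97 (adjusted p = 0.0656) or 0.78 (adjusted p = 0.163). Without ND6 shControl replicate 1 or ND6 shKBTBD8 replicate 2 the ND6 difference was 0.81 (adjusted p = 0.292) or 0.63 (adjusted p = 0.261), and in a fit of the ND6 groups alone it did not pass (adjusted p = 0.0753).

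TET2 mRNA was lower in both shKBTBD8 libraries than in both control libraries at all 4 stages. At hES 2.81 and 3.01 CPM stood against 4.54 and 5.89, and at ND1 6.03 and 4.72 against 12.0 and 12.1. At ND3 21.2 and 18.9 CPM stood against 36.6 and 30.1, and at ND6 44.2 and 35.7 against 66.2 and 57.6. The difference passed at ND1, -1.14 ± 0.19 (adjusted p = 0.00695), and at ND3, -0.73 ± 0.17 (adjusted p = 0.0124). It did not pass at hES, -0.84 ± 0.20 (adjusted p = 0.15; with DESeq2 adjusted p = 0.0459), or at ND6, -0.58 ± 0.16 (adjusted p = 0.0637; with DESeq2 adjusted p = 0.0346). Leaving out ND1 shControl replicate 1 (-1.13, adjusted p = 0.0764) or 2 (-1.15, adjusted p = 0.0589) or ND1 shKBTBD8 replicate 2 (-0.96, adjusted p = 0.121) ended the call at ND1. At ND3 the call ended without shControl replicate 1 (-0.56, adjusted p = 0.166), shKBTBD8 replicate 1 (-0.82, adjusted p = 0.0565) or shKBTBD8 replicate 2 (-0.65, adjusted p = 0.14).

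TET1 stood at 91.9 and 87.5 CPM in shKBTBD8 cells against 144 and 136 in control cells at ND1, the largest gap of TET1 between hairpins. The groups did not overlap, and the difference of -0.61 ± 0.17 did not pass (adjusted p = 0.0942; with DESeq2 adjusted p = 0.0187; with only the groups compared adjusted p = 0.0441). DNMT3A and DNMT1 mRNA differed by -0.07 to 0.36 between hairpins over the 4 stages, with SEs of 0.19, and none passed. In all, 0, 1, 2 and 1 of the 5 enzymes passed at hES, ND1, ND3 and ND6, beside 0.181%, 1.22%, 8.43% and 3.99% of all transcripts. At hES 1 enzyme, TET2, had an unadjusted p under 0.05.

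**Figure D4:**
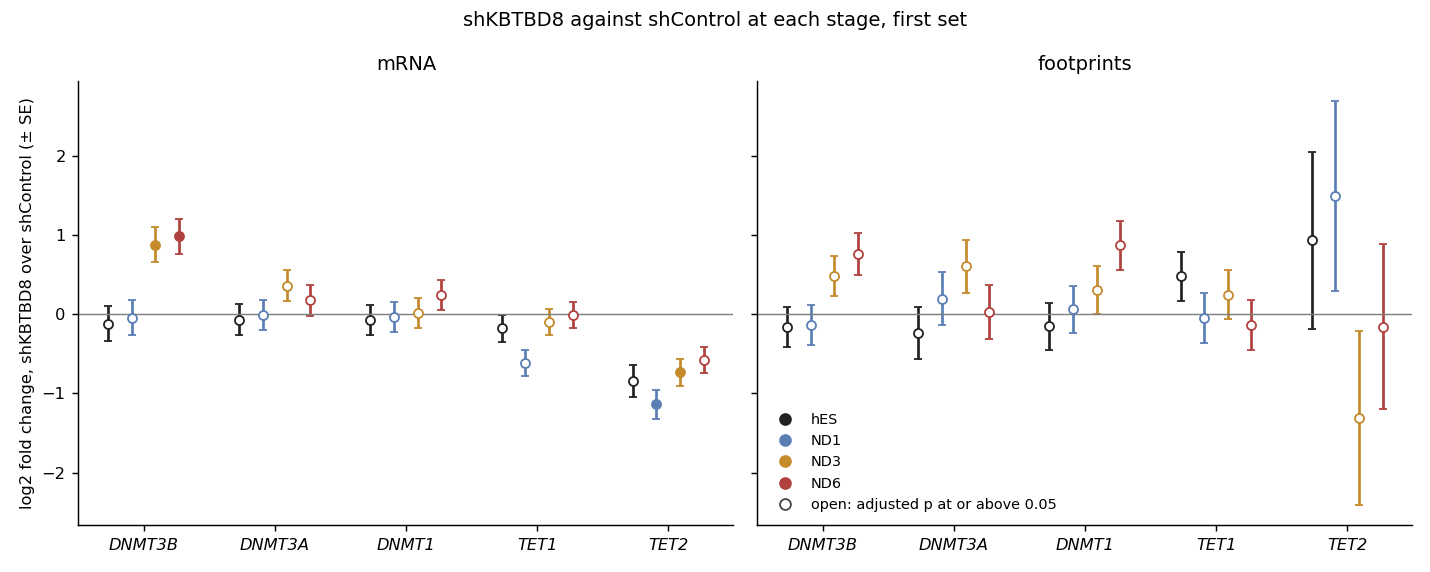
Log2 fold change of shKBTBD8 over shControl (± SE) for each enzyme at 4 stages of the first set, mRNA on the left and footprints on the right, filled where the adjusted p was under 0.05. DNMT3B mRNA lies at 0.88 and 0.98 at ND3 and ND6, TET2 mRNA lies below 0 at every stage, and no footprint value is filled.

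Footprint differences between hairpins did not pass for any enzyme at any stage. DNMT3B footprints stood at 473 and 415 CPM in shKBTBD8 cells against 241 and 370 in control cells at ND3, and at 174 and 210 against 110 and 118 at ND6. The groups did not overlap, and the differences of 0.48 ± 0.26 (adjusted p = 0.702) and 0.76 ± 0.26 (adjusted p = 0.821) had the direction of the mRNA. DNMT1 footprints stood at 140 and 214 CPM against 74.9 and 119 at ND6, a difference of 0.87 ± 0.31 (adjusted p = 0.821). Few transcripts passed in these comparisons, with 0.0%, 0.0119%, 0.305% and 0.0119% of 16740 at hES, ND1, ND3 and ND6. At ND6 2 enzymes, DNMT3B and DNMT1, had an unadjusted p under 0.05, and at the other stages 0 had, while DESeq2 called 0 at each stage. Efficiency differences did not pass either (adjusted p of at least 0.97 for every enzyme and stage), beside 0.0% of 17680 transcripts at each stage. Unadjusted, 1 enzyme, TET2, was under 0.05 at hES (1.75 ± 0.84, log2, SE) and again at ND1 (2.57 ± 0.93). At ND3 and ND6 0 were, and DESeq2 called 0. TET2 footprints differed by 0.93 ± 1.11 at hES and 1.49 ± 1.19 at ND1, opposite in sign to the lower TET2 mRNA. At ND3 and ND6 they differed by -1.31 ± 1.10 and -0.16 ± 1.04. All these TET2 values rest on few footprint counts.

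Whether the shKBTBD8 effect itself differed between stages was tested against the effect at hES. For DNMT3B the effect was larger by 1.00 ± 0.31 (log2, SE) at ND3 (unadjusted p = 0.00604, adjusted p = 0.157) and by 1.10 ± 0.31 at ND6 (unadjusted p = 0.00313, adjusted p = 0.154; with DESeq2 adjusted p = 0.0362). It was larger by 0.07 ± 0.31 at ND1 (adjusted p = 1.0). For TET2 the effect differed from that at hES by -0.30 ± 0.28 at ND1, 0.11 ± 0.26 at ND3 and 0.26 ± 0.26 at ND6 (adjusted p = 1.0, 0.942 and 0.919). No enzyme passed in edgeR. Unadjusted, 0, 1 and 1 were under 0.05 at ND1, ND3 and ND6, and DESeq2 called 0, 0 and 1. Of all transcripts, 0.0%, 1.56% and 0.866% were called.

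The second set repeated hES and ND3 in other libraries. DNMT3B mRNA measured 1131 and 1268 CPM in hES shControl, 901.5 in shKBTBD8 and 1246 in shTCOF1, and at ND3 315.5 in shControl, 309 in shKBTBD8 and 476 in shTCOF1. All 3 ND3 libraries lay below all 4 hES libraries. With stage and hairpin as additive terms, DNMT3B fell by 1.57 ± 0.11 (log2, SE; adjusted p = 1.7e-05) in mRNA and by 1.57 ± 0.14 in footprints (adjusted p = 3.39e-05).

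TET2 mRNA measured 9.04 and 5.17 CPM in hES shControl, 11.1 in shKBTBD8 and 6.13 in shTCOF1, and 26.3, 35.2 and 22.9 CPM at ND3 in the same order of hairpins. The stages did not overlap. It rose by 1.92 ± 0.16 in mRNA (adjusted p = 3.59e-05). In footprints TET2 rose by 3.79 ± 1.16 (adjusted p = 0.0444) on 2, 9, 13 and 0 counts at hES and 114, 35 and 25 at ND3. That footprint call ended without any 1 of 5 of the 7 libraries (adjusted p up to 0.383): hES shControl replicate 1, hES shTCOF1 or any of the ND3 libraries. It also ended with both sets together (2.14, adjusted p = 0.0714).

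TET1 mRNA measured 113 and 96.1 CPM in hES shControl, 121 in shKBTBD8 and 109 in shTCOF1, and 151, 199 and 186 CPM at ND3. It rose by 0.74 ± 0.09 (adjusted p = 0.000161), again with no overlap of stages. DNMT3A mRNA, at 117 to 143 CPM over the hES libraries and 92.1 to 106 at ND3, fell by 0.37 ± 0.08 (adjusted p = 0.00481), a change that had not passed in the first set and that missed the threshold in a fit of both sets together (-0.26, adjusted p = 0.0505). DNMT1 mRNA stayed between 176.5 and 208.5 CPM over the 7 libraries, a change of 0.13 ± 0.08 (adjusted p = 0.197). In footprints the estimate for TET1 was 0.54 ± 0.18 (adjusted p = 0.0571; without hES shControl replicate 2 0.62, adjusted p = 0.0301), and it passed with DESeq2 (adjusted p = 0.0491), with no filter on low counts (adjusted p = 0.0443) and with both sets together (adjusted p = 0.00649). The estimate for DNMT1 was 0.37 ± 0.17 (adjusted p = 0.188). With 1 library left out it ran from 0.19 to 0.62, the latter without the shKBTBD8 library of hES or of ND3. In the second set 4 enzymes passed for stage in mRNA and 2 in footprints (4 and 3 with DESeq2), beside 61.9% of 17616 and 16.5% of 16414 transcripts. In efficiency no enzyme passed or had an unadjusted p under 0.05 in edgeR, and DESeq2 called 0, beside 1.47% of 17516.

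The shKBTBD8 differences seen for DNMT3B and TET2 mRNA in the first set were not seen in the second, which has 1 shKBTBD8 library per stage and assay. At ND3 the shKBTBD8 library had 309 CPM of DNMT3B mRNA against 315.5 in shControl, and 35.2 CPM of TET2 against 26.3. At hES it had the lowest DNMT3B and the highest TET2 of the 4 libraries. In the few TET2 footprints of the second set, shKBTBD8 lay above the control at hES (1.98 against 0.378 and 1.40 CPM). At ND3 it lay below (8.61 against 14.8 CPM). TET2 mRNA lay above the control at both stages, where in the first set it lay below. The additive model gave -0.34 ± 0.13 for DNMT3B (adjusted p = 0.481) and 0.50 ± 0.20 for TET2 (adjusted p = 0.495). Tested directly in a model of both sets, the shKBTBD8 effect on DNMT3B at ND3 was lower in the second set by 0.97 ± 0.37 (log2, SE; unadjusted p = 0.0192, adjusted p = 0.325), and the effect on TET2 was higher by 1.09 ± 0.35 at ND3 (unadjusted p = 0.00599, adjusted p = 0.175) and by 1.45 ± 0.36 at hES (unadjusted p = 0.00107, adjusted p = 0.144; with DESeq2 adjusted p = 0.0342). That comparison was added after the values of both sets had been seen, and its lone second-set libraries are assumed to vary like the others. Of all transcripts, 0.249% at hES and 1.62% at ND3 were called in mRNA and 0.0172% and 0.0975% in footprints, with no enzyme among them in edgeR. In footprints 0 enzymes had an unadjusted p under 0.05 at either stage, and DESeq2 called 0.

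With shTCOF1 the DNMT3B mRNA was 1246 CPM at hES, inside the control range, and 476 at ND3, the highest of the 3 ND3 libraries. The additive estimate was 0.26 ± 0.13 (adjusted p = 0.941). For the other 4 enzymes the shTCOF1 estimates in mRNA lay between -0.19 and 0.15 and none passed. Over the second set's hairpin comparisons no enzyme passed in any assay with edgeR or DESeq2. Unadjusted, 2 were under 0.05 for shKBTBD8 mRNA (DNMT3B and TET2), 1 for shKBTBD8 footprints (DNMT3B), 1 for shTCOF1 efficiency (DNMT3A) and 0 in the other 3. For shKBTBD8 0.0227% of transcripts were called in mRNA, 0.0% in footprints and 0.0% in efficiency, and for shTCOF1 0.0% in each of mRNA, footprints and efficiency.

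The profiles of the enzymes over the 8 first-set groups of mRNA differed from one another. Each profile was the mean log2 CPM per group, centred on its own mean, and likeness was the root mean square difference between profiles. DNMT3A and DNMT1 were the closest of the 10 pairs at 0.272, and DNMT3B and TET2 the furthest apart at 2.81. Over 17638 other transcript groups, 4 lay within 0.2 of DNMT3B and 0 within 0.2 of TET2, against 1091 for DNMT3A, 2440 for DNMT1 and 929 for TET1. Profiles were not scaled to the size of their changes. These counts therefore depend on how much a transcript changes and do not show that the course of DNMT3B or TET2 is unusual. Rows next to that of DNMT3B that were not joined to its group may be among its 4, so these are not known to be other genes. The closest to DNMT3B was uc002wyg.3, at 0.0314, with 753 ± 127 CPM at hES and 65.4 ± 12.1 at ND6 in control cells (SD, n = 2). This row is near that of DNMT3B in the table and may share its reads. The closest to DNMT3A was uc002gyw.4, at 0.0701, with 3.3 ± 0.962 CPM at hES and 2.88 ± 0.967 at ND6 (SD, n = 2). Neither identifier is paired with a gene name.

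The share of DNMT3B counts that a shorter neighbouring row lacks became smaller during conversion in control mRNA and footprints, a description chosen after the values were seen. DNMT3B is known to be made in several spliced forms. The DNMT3B row has a shorter neighbour, uc002wye.3, whose counts were below those of the longer row in all 46 libraries. The difference, 9.95% of the length, can be read as counts on sequence that the longer row has and the shorter one lacks, although the tables give no coordinates for either. Over all libraries it made up 11.5% of the longer row's counts.

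In control mRNA that share was 12.3% and 12.6% at hES and 11.9% and 11.7% at ND1. It was 6.86% and 7.97% at ND3, and 0.662% and 1.22% at ND6, where 13 of 1964 and 35 of 2880 counts remained (95% exact binomial intervals 0.353% to 1.13% and 0.848% to 1.69%, for counting error only). The share was thus lower at the stages where DNMT3B mRNA was lower. In shKBTBD8 mRNA it was 12.3% and 11.7% at hES, 12.0% and 10.3% at ND1, 10.4% and 9.67% at ND3, then 8.04% and 4.78% at ND6. Both shKBTBD8 libraries lay above both control libraries at ND3 and ND6. At ND6 the means were 6.41% ± 2.31 in shKBTBD8 and 0.941% ± 0.395 in control cells (SD, n = 2 each).

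The second set showed the same direction between stages. Its mRNA share was 11.8% to 12.3% over the 4 hES libraries and 5.31%, 7.47% and 9.01% in shControl, shKBTBD8 and shTCOF1 at ND3. In first-set footprints the control share was 12.9% and 18.4% at hES, 8.07% and 11.5% at ND3, then 3.73% and 7.64% at ND6. In shKBTBD8 footprints it was 12.6% and 15.4% at hES, 13.1% and 16.2% at ND3, then 8.28% and 8.84% at ND6, so it was no lower at ND3 than at hES. The footprint share of the second set was 11.7% to 17.4% at hES and 2.37%, 7.23% and 10.7% at ND3.

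Because this pair of rows was picked for its values, the shares are given without a test. It was picked from the 16 rows nearest to that of DNMT3B in the table, several of which also departed from its counts. Whether splicing or mapping changed was not tested.

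**Figure D5:**
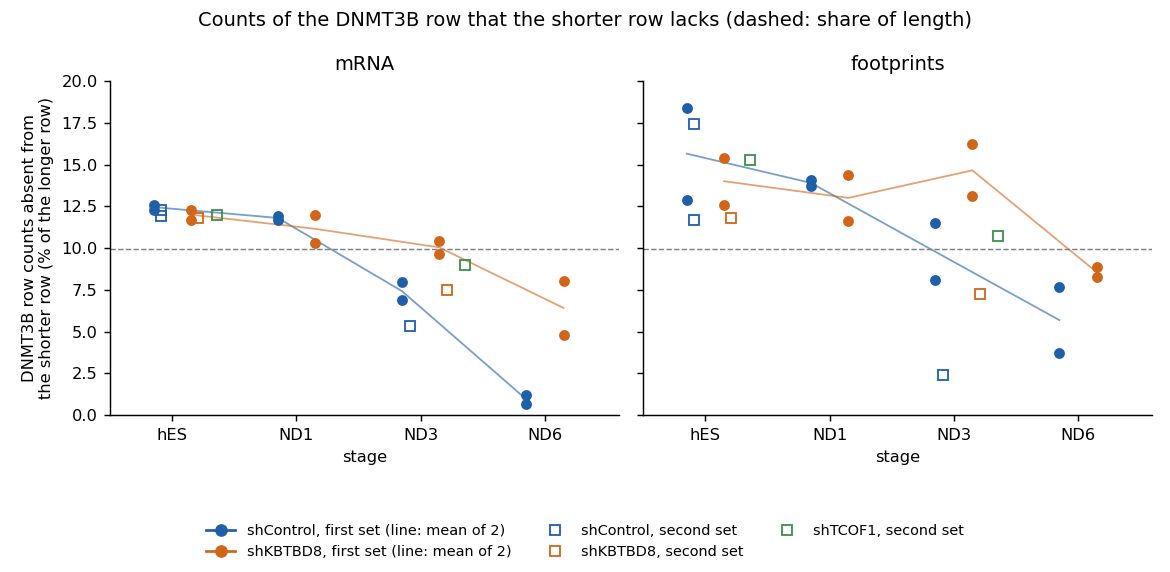
Share of the DNMT3B row's counts that its shorter neighbouring row lacks (%), against stage, with 1 point per library, coloured by hairpin, filled for the first set and open for the second, mRNA on the left and footprints on the right. Lines join the means of 2 replicates and the dashed line marks the share of length, 9.95%. In control mRNA the share falls from 12.3% and 12.6% at hES to 0.662% and 1.22% at ND6.

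DNMT3A, which is known to have a long and a short form, has a shorter row, uc002rgb.4, beside its own. Here the difference between the rows made up 1.83% of the longer row's counts over all libraries for 21.2% of its length, and it was below 0 in 1 of 46 libraries, so these rows are not strictly nested. The share is thus a net difference, the longer row's counts less the shorter row's, as a percentage of the longer row's counts. In first-set mRNA it was 5.5% ± 0.163 at ND1 in control cells and 6.84% ± 0.601 in shKBTBD8 cells (SD, n = 2 each). It was 1.76% ± 1.38 and 2.6% ± 1.68 at hES, 0.338% ± 0.431 and 0.824% ± 0.0325 at ND3 and 1.72% ± 0.148 and 1.09% ± 0.099 at ND6, in the same order. All 4 ND1 libraries lay above the other 12 of the first set. Footprints showed 4.89% ± 1.43 and 7.08% ± 0.445 at ND1 against 1.37% ± 1.05 and 1.11% ± 1.58 at hES (SD, n = 2 each). These shares were not tested.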

How the data were processed

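The deposited counts are whole numbers per transcript row, made by the authors; the submitters' processing notes list CASAVA 1.8, TopHat2 2.0.7, Bowtie2 2.0.6 and the hg19 build. How reads were counted, on which strand, and how multiple matches were treated is not given in the sources used here. The deposited length of each row (unit: other) served to choose rows and scale levels. The members, lists and rows were chosen with earlier results of these data known. All 5 enzymes are named. The lists of other methylation genes and of cell markers were not applied, since 2 of 63691 identifiers, neither an enzyme, matched the gene tables.

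Rows whose mean count reached 10 and that lay within 20 rows of each other and differed by less than sampling noise (chi-square per degree of freedom under 2) were joined, giving 17680 groups; an enzyme's own row stood for its group, which held 3 rows for DNMT3B and DNMT3A, 4 for DNMT1, 1 for TET1 and 5 for TET2. Rows of overlapping isoforms share reads, and values of DNMT3A, TET1 and the others may include reads of forms not told apart here.

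Counts were tested with edgeR 4.0.16 in R 4.3.3 (TMM, filterByExpr, quasi-likelihood F-test, Benjamini-Hochberg over all transcripts, threshold 0.05, two-sided), with 8 groups in 1 model per assay of the first set and additive stage and hairpin terms in the second (3 residual degrees of freedom for an assay). Standard errors came from the F statistic. The script was tested on simulated data. Alternatives were DESeq2 1.42.0, RLE factors, no filter, each row on its own, a replicate block, only the groups compared, both sets together, each library left out, and the shorter DNMT3B row, the last added after the data were seen. The first-set replicate numbers did not meet the rule for paired libraries (a correlation over 0.1 in every pair of groups), and the block was kept as an alternative. Intervals and zero limits (3 counts) cover counting error only.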

Additional observations from a re-analysis of the deposited data

How the results depend on the processing

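Of 522 alternatives over 47 enzyme values that were called in some setting, 456 kept direction and side of the threshold, 38 lost the call, 25 gained it and 3 reversed. The fall of DNMT3B and the rise of TET2 in mRNA at ND3 and ND6, in control and in shKBTBD8 cells, were called under every alternative run. Reversals were DNMT3A at ND6 in control mRNA (-0.51 to 0.00903 with 1 library left out, main -0.27), TET2 efficiency under shKBTBD8 at ND3 (-8.7 to 0.33, main -0.48, where the low end leaves the library with 0 footprint counts alone and is no bound) and DNMT1 in second-set footprints (-0.13 with both sets together, main 0.37). The cause was not tested for DNMT3A and DNMT1.

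Counts of enzymes called for shKBTBD8 against shControl in mRNA were 1, 2 and 2 with DESeq2 at hES, ND1 and ND6 (main 0, 1 and 1), 2 at ND1 and 0 at ND6 with only the groups compared, and 2 at ND6 with the replicate block. DESeq2 also called 1 for the effect by stage at ND6 and 1 for the second set less the first at hES (main 0 each). With 1 library left out, control mRNA gave 1 to 3 at ND1 and 2 to 5 at ND6, shKBTBD8 conversion gave 0 to 2 at ND1, and the shKBTBD8 effect in mRNA gave 0 to 1 at ND1, 0 to 2 at ND3 and 0 to 1 at ND6. Control footprints gave 1 to 2 at ND3 and 1 to 2 at ND6 (main 1 and 3), efficiency under shKBTBD8 at ND3 gave 0 to 1, and second-set footprints gave 1 to 3.

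Same-numbered libraries deviated together in part of the group pairs. Over 28 pairs the correlation of replicate differences ran from -0.0693 to 0.783 in mRNA (median 0.234) and from -0.143 to 0.396 in footprints (median 0.0885). Not every pair passed 0.1, so by the rule used the numbers were not taken to pair the samples, although a shared factor in mRNA was not tested. Under the replicate block TET2 at ND6 differed by -0.59 between hairpins in mRNA (adjusted p = 0.0152), DNMT1 in shKBTBD8 cells fell by 0.45 at ND6 (adjusted p = 0.0273), and TET2 in control footprints at ND6 was at 3.38 (adjusted p = 0.0521). With 2 libraries per group, and TET2 footprints near the counting floor, depth and replicate number limit what could be detected.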
